A study of Rattus norvegicus with 6 samples.

Results

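A set of 9 genes of the methionine cycle and of the methyl transfers it feeds were followed in bulk messenger RNA sequencing of rat liver: Mat1a, Mat2a, Mat2b, Gnmt, Bhmt, Ahcy, Mtr, Pemt and Nnmt. They were chosen by name for their place in the pathway, with earlier results of these data known. All 9 were found among the 32623 genes of the deposited table. The series holds 6 libraries from rats, all of them from liver tissue that had been embolized, that is, whose feeding vessels had been blocked. In 3 libraries (GM 1 to 3, the control) the microspheres were blank, and in 3 (GZM 1 to 3) they carried zinc sulfide. The sources used here give no strain, age or time after embolization. The study's title places it in hepatocellular carcinoma, but the labels do not say if tumour was sampled. The samples of a group are called replicates without stating that each came from its own animal. The p-values therefore describe the spread among these samples, some of which may be technical.

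Methionine adenosyltransferase joins methionine to adenosine from ATP and so makes S-adenosylmethionine, the methyl donor of the cell. A methyltransferase then passes the methyl group on, leaving S-adenosylhomocysteine, which is split into adenosine and homocysteine. Homocysteine either takes up a new methyl group and becomes methionine again or is committed to cysteine through transsulfuration. Adult hepatocytes make S-adenosylmethionine mainly with the catalytic subunit encoded by Mat1a, while fetal liver, most other tissues and many liver tumours use the one encoded by Mat2a, with the regulatory subunit encoded by Mat2b.

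The comparison asks how the pathway differed between liver embolized with zinc sulfide microspheres and liver embolized with blank ones. Mat1a, Bhmt, Pemt, Ahcy and Nnmt rose in GZM by 2.50-fold to 7.26-fold, Mat2a fell 2.37-fold, and Mat2b and Mtr did not pass the test. Gnmt had 1 count in all 6 libraries and was not tested. Calls are from edgeR's quasi-likelihood test over all 14298 genes that passed the low-count filter, with Benjamini-Hochberg adjusted p under 0.05. Libraries were scaled with TMM factors, which correct for differences in RNA composition. Of the 8 tested members 5 were higher and 1 was lower, where 22.2% of all tested genes were higher, 21.7% lower and 44.0% either. The members' median log2 fold change was 1.51 against -0.09 for all tested genes. The libraries of the 2 groups did not overlap for 6 of the 8, where this held for 58.1% of all tested genes.

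**Figure D1:**
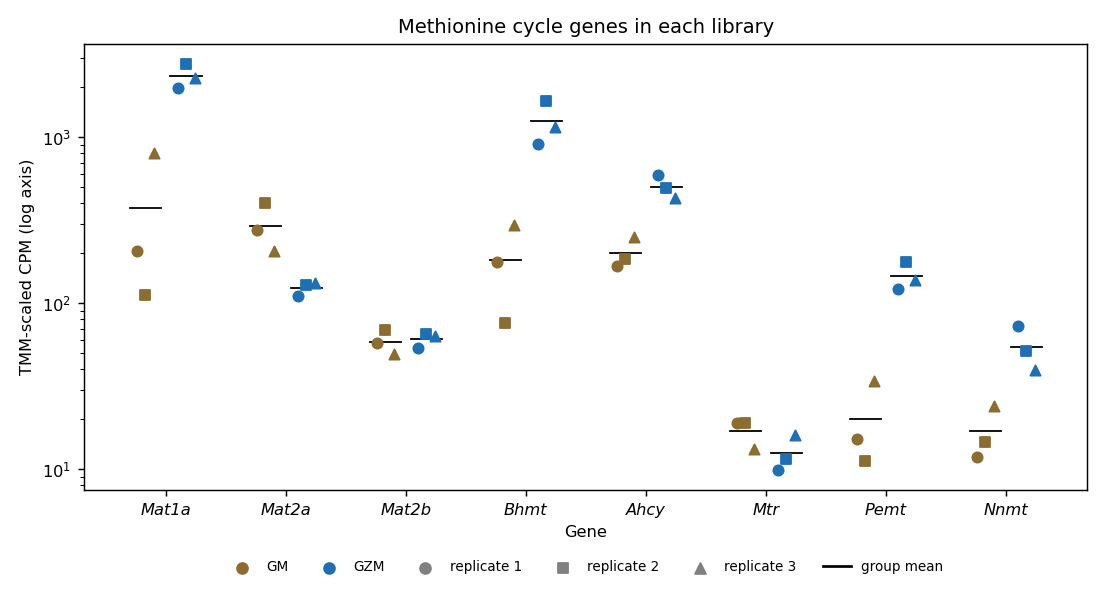
CPM (counts relative to library size, scaled with TMM factors, log axis) of the 8 tested genes in each GM and GZM library, with symbols for the replicate number and bars for the group mean (n = 3). All GZM points lie above all GM points for Mat1a, Bhmt, Ahcy, Pemt and Nnmt and below them for Mat2a, while Mat2b and Mtr overlap.

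The libraries held 13443115 to 16604067 counts each. The share of counts from a list of hepatocyte marker genes moved with the groups. The matched hepatocyte markers took 3.79% of counts in GM 1, 2.70% in GM 2 and 8.43% in GM 3. Their share was 14.8%, 15.2% and 14.2% in GZM 1, 2 and 3. Of the 18 tested ones 17 rose (median log2 fold change 2.55), and 9 did so without GM 1. All 19 tested cell division genes fell (median -1.98). Their share was 0.231%, 0.307% and 0.102% in GM 1, 2 and 3 and 0.0278% to 0.0311% in GZM. GM 3 was thus the GM library with the most hepatocyte and the least cell division transcript. In bulk tissue fewer cells of a type and less RNA per cell cannot be told apart. Among markers of other cells, 2 of 14 stellate cell and fibroblast genes rose (Reln and Lrat) and 3 fell (Col1a1, Thy1 and Postn), 5 of 9 endothelial genes rose and 1 fell, 2 of 11 macrophage genes rose (Clec4f and Vsig4) and 5 fell, and 1 of 11 lymphocyte genes fell (Cd8a). These counts changed with the libraries used. Without GZM 2 no stellate cell or fibroblast gene fell, 2 endothelial genes rose and 1 macrophage gene fell. Calls also became fewer over all tested genes, from 3181 to 2112 higher and from 3104 to 1665 lower. Without GZM 1 there were 6 lymphocyte genes lower, where 2542 of all 14832 tested genes were. With library totals instead of TMM factors no stellate cell, fibroblast or endothelial gene rose, where 1315 of all 14298 tested genes did. No matched marker of these cell types was at 0 in any library. Their summed shares of counts ran from 0.571% to 1.53% in GM and 0.160% to 0.346% in GZM for stellate and fibroblast genes, from 0.0335% to 0.0503% and 0.0293% to 0.0387% for endothelial genes, from 0.534% to 0.814% and 0.154% to 0.231% for macrophage genes, and from 0.0368% to 0.0604% and 0.00667% to 0.0187% for lymphocyte genes. The part of these cell types in the members' differences was not tested.

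The transcripts of the catalytic subunits that make S-adenosylmethionine moved in opposite directions. Mat1a (ENSRNOG00000011351, chromosome 16, 18690246 to 18709133 in the coordinates of the deposited table, plus strand) stood at 206, 112 and 800.2 CPM in GM 1, 2 and 3 and at 1969, 2749 and 2268 CPM in GZM 1, 2 and 3. The lowest GZM library was 2.46-fold above the highest GM library, and within GM the values spread 7.16-fold, with GM 3 on top. The log2 fold change was 2.64 ± 0.69 SE (edgeR adjusted p = 0.0173, higher in 3 of 3 GZM libraries), or 6.25-fold. The call was lost without GM 1 (edgeR adjusted p = 0.0662) or GZM 2 (0.0521), and the log2 fold change was 3.91 without GM 3.

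Mat2a (ENSRNOG00000013520, chromosome 4, 100296075 to 100303080, minus strand), the catalytic subunit of dividing and extrahepatic cells, stood at 274, 401 and 205 CPM in GM 1, 2 and 3 and at 110, 129 and 133 CPM in GZM 1, 2 and 3. Every GZM library was below every GM library, and GM 3, the highest for Mat1a, was the lowest GM library for Mat2a. The gene fell by 1.25 on the log2 scale (SE 0.26, edgeR adjusted p = 0.008), a call kept on leaving out any single library (adjusted p from 0.00101 to 0.0361). A separate row described as similar to an S-adenosylmethionine synthase (RGD1560523, chromosome 13) had 15 to 21 counts in GM and 4 to 7 in GZM. Its log2 fold change was -0.72 (edgeR adjusted p = 0.18), and how reads shared between such copies were counted is not stated.

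Mat2b (ENSRNOG00000003177, chromosome 10, 25832072 to 25847994, minus strand), which encodes the regulatory subunit that partners the Mat2a product, stood at 57.4, 69.1 and 49.3 CPM in GM and 53.9, 65.1 and 63.6 CPM in GZM. The groups overlapped, and the log2 fold change was 0.06 ± 0.17 SE (edgeR adjusted p = 0.811). When library totals replaced TMM factors it was -0.80 (adjusted p = 0.0132), on a scale where the median of all tested genes was -0.92.

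Ratios within a library do not depend on the scaling between libraries. Per exon length, as deposited FPKM (fragments relative to exon length and library size), Mat1a was 0.751, 0.279 and 3.89 times Mat2a in GM 1, 2 and 3 and 17.9, 21.3 and 17.1 times Mat2a in GZM 1, 2 and 3. Mat1a thus made up 42.9%, 21.8% and 79.6% of the summed FPKM of the 2 catalytic genes in GM and 94.7%, 95.5% and 94.5% in GZM. Mat2a was the more abundant of the pair in GM 1 and GM 2, and Mat1a in GM 3 and in all GZM libraries. As log2 ratios the groups were -0.10 ± 1.92 and 4.23 ± 0.17 (SD, n = 3 each), a difference of 4.32 with an exact two-sided permutation p = 0.1, the smallest that 3 against 3 libraries allow (adjusted over the 4 ratios computed, 0.1). Leaving out GM 2 lowered the difference to 3.45, and leaving out GM 3 raised it to 5.35.

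The other ratios of the family moved as follows. Against Mat2b, Mat1a had log2 FPKM ratios of 1.12, -0.03 and 3.30 in GM and 4.47, 4.68 and 4.43 in GZM, a difference of 3.06 (exact permutation p = 0.1; 2.32 without GM 2 and 3.98 without GM 3). Mat2a to Mat2b ratios were 2.89, 3.52 and 2.53 in GM and 1.24, 1.20 and 1.26 in GZM, so that the catalytic and regulatory transcripts were closer to equal in GZM (log2 difference -1.26, exact permutation p = 0.1). The values were tight in GZM, with an SD of 0.04 on the log2 scale against 0.24 in GM. The sum of Mat1a and Mat2a, as TMM-scaled FPKM, was 143, 153 and 301 in GM and 621, 860.1 and 717 in GZM.

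**Figure D2:**
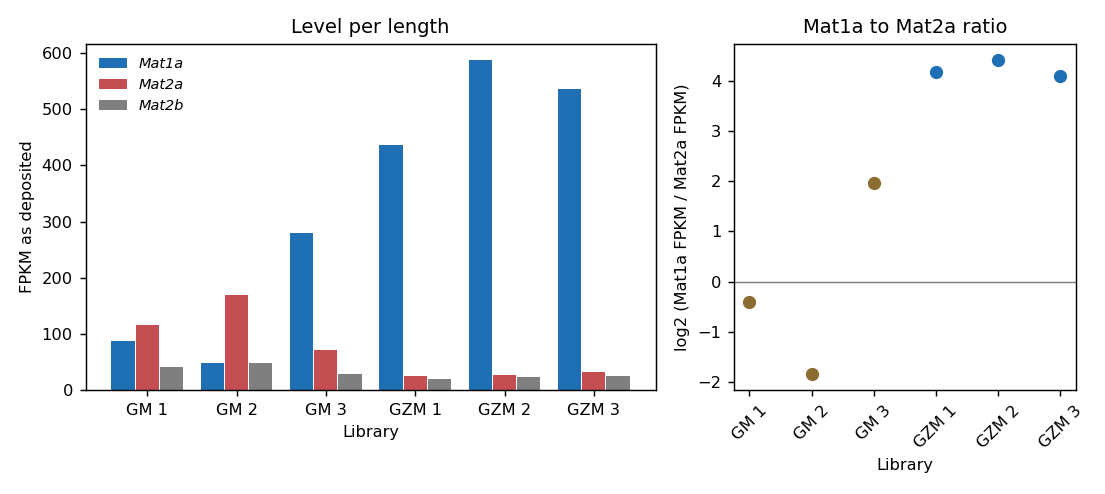
Left, deposited FPKM of Mat1a, Mat2a and Mat2b in each library (1 bar per library, no error bar). Right, log2 of the Mat1a to Mat2a FPKM ratio in each library, with 0 meaning equal levels: GM 1 and GM 2 lie below 0, GM 3 at 1.96 and the GZM libraries between 4.10 and 4.42.

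The regions before the start sites of the synthesis genes differ in CG content. The 250 bases before the RefSeq start are shown for the gene pair that moved in opposite directions (Mat1a and Mat2a), for the regulatory subunit (Mat2b) and for Bhmt, which rose with Mat1a. They are from RefSeq on build GRCr8, which is not the coordinate system of the deposited table, and run 5′ to 3′ on the strand of the gene. Capitals mark CG pairs and the letters TATAAA.
Mat1a, chr16:17016918-17017167, plus strand: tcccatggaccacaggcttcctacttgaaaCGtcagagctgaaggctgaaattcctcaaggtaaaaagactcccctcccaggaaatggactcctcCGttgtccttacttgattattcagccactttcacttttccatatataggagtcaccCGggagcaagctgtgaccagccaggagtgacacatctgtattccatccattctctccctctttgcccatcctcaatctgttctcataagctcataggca
Mat2a, chr4:106053613-106053862, minus strand: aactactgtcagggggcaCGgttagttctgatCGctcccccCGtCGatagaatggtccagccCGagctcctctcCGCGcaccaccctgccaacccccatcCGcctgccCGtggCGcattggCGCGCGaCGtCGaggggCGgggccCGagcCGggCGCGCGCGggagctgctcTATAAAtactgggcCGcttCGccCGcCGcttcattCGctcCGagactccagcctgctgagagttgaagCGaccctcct
Mat2b, chr10:25622770-25623019, minus strand: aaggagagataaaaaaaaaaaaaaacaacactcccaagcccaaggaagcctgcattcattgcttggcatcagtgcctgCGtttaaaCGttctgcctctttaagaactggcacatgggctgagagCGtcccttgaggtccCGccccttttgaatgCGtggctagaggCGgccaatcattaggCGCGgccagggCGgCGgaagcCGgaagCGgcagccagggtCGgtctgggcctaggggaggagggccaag
Bhmt, chr2:26614430-26614679, minus strand: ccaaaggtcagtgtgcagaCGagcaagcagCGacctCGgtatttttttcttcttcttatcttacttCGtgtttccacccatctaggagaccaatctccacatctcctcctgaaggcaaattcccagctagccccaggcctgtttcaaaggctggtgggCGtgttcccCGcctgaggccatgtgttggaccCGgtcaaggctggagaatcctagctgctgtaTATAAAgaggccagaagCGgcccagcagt

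The Mat1a window held 3 CG pairs and the Mat2a window 29, against a median of 5 over 33469 RefSeq windows of the same length. Only 6.04% of windows had as many CG pairs as that of Mat2a, and 71.4% had as many as that of Mat1a. Of the 8 members with an entry, Mat1a had the fewest, followed by Pemt (4), Bhmt (8), Gnmt (10), Mat2b (13), Mtr (14) and Ahcy (15). Bhmt and those after it lay above the median of all windows. The letters TATAAA, searched on both strands, occurred once each before Mat2a and Bhmt and in no other member window, and in 12.9% of all windows. GGGCGG, which itself holds a CG pair, occurred on either strand before Mat2a, Mat2b, Gnmt, Ahcy and Mtr and not before Mat1a, Bhmt or Pemt (30.5% of all windows), and CCAAT before all members with an entry other than Mat1a and Ahcy (34.0%). These matches describe letters in the windows, and no binding or methylation was measured. Nnmt had no entry.

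Among the methyltransferases, Pemt and Nnmt rose. Pemt (ENSRNOG00000054423, chromosome 10, 46339821 to 46404642, minus strand) encodes the liver enzyme that methylates phosphatidylethanolamine to phosphatidylcholine and is a major consumer of S-adenosylmethionine. It stood at 15.2, 11.2 and 33.9 CPM in GM 1, 2 and 3 and at 122, 177 and 138 CPM in GZM 1, 2 and 3. The groups were 3.61-fold apart at their nearest libraries, the widest gap of the 8 tested members. The log2 fold change was 2.86 ± 0.41 SE (edgeR adjusted p = 0.00268, higher in 3 of 3 GZM libraries), or 7.26-fold, and 3.50 without GM 3.

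Nnmt (ENSRNOG00000005930, chromosome 8, 52925175 to 52937972, minus strand) encodes nicotinamide N-methyltransferase, which spends S-adenosylmethionine on nicotinamide and is active in liver, fat and tumour stroma. It stood at 11.9, 14.6 and 24.2 CPM in GM 1, 2 and 3 and at 73.0, 51.3 and 39.3 CPM in GZM 1, 2 and 3. The groups did not overlap, and GZM 1 was the highest library. The log2 fold change was 1.69 ± 0.32 SE (edgeR adjusted p = 0.00564), or 3.23-fold, and 0.89 with library totals (adjusted p = 0.0194).

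Gnmt (ENSRNOG00000016349, chromosome 9, 16565225 to 16568627, plus strand), the glycine N-methyltransferase that buffers S-adenosylmethionine in hepatocytes, had 0 counts in 5 libraries and 1 count in GZM 2. No count in the 3 GM libraries allows up to 3 counts over them, or 0.0628 CPM, and no fold is given because both groups lie at or under this floor. The table holds a second row described as glycine N-methyltransferase-like (LOC100911564, chromosome 9, 16314173 to 16317413) with 0 counts in every GM library and 1 count in every GZM library. It also holds Pex6, a peroxisome gene on the opposite strand, which overlaps Gnmt by 1940 bases and had 330 to 569 counts in GM and 556 to 578 in GZM. The handling of reads shared by copies or by overlapping genes is not stated, so these counts are no measure of Gnmt in this tissue.

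Ahcy, the hydrolase that splits S-adenosylhomocysteine and so relieves methyltransferases of their inhibitory product, rose as well. The gene (ENSRNOG00000017777, chromosome 3, 150587833 to 150603082, minus strand) stood at 168, 185 and 251 CPM in GM 1, 2 and 3 and at 590.3, 491 and 429.7 CPM in GZM 1, 2 and 3. The lowest GZM library was 1.71-fold above the highest GM library. The log2 fold change was 1.32 ± 0.24 SE (edgeR adjusted p = 0.00457), or 2.50-fold, but 0.50 with library totals, where the call was lost (adjusted p = 0.0521).

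Of the enzymes that remethylate homocysteine, Bhmt rose and Mtr did not pass. Bhmt (ENSRNOG00000011200, chromosome 2, 23236575 to 23256158, minus strand) uses betaine as the methyl source and is largely a liver and kidney enzyme. It stood at 177, 76.5 and 296 CPM in GM 1, 2 and 3 and at 911, 1660.0 and 1159 CPM in GZM 1, 2 and 3. The nearest libraries of the groups were 3.08-fold apart, and the log2 fold change was 2.76 ± 0.50 SE (edgeR adjusted p = 0.00482), or 6.80-fold.

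Mtr (ENSRNOG00000017593, chromosome 17, 66210461 to 66295014, minus strand), the cobalamin-dependent methionine synthase that takes its methyl group from folate, stood at 19.0, 18.9 and 13.3 CPM in GM and 9.93, 11.6 and 16.2 CPM in GZM. GZM 3 lay within the GM range. The log2 fold change was -0.44 ± 0.25 SE (edgeR adjusted p = 0.193), and -1.28 with library totals (adjusted p = 0.00699). An unnamed gene on the opposite strand (AABR07028349.1) lies wholly within Mtr, and it had 173 to 374 counts in GM and 50 to 98 in GZM. Per length, Bhmt exceeded Mtr in every library, with FPKM ratios of 23.0, 10.0 and 55.2 in GM and 227, 354 and 177 in GZM (log2 difference 3.38, exact permutation p = 0.1).

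**Figure D3:**
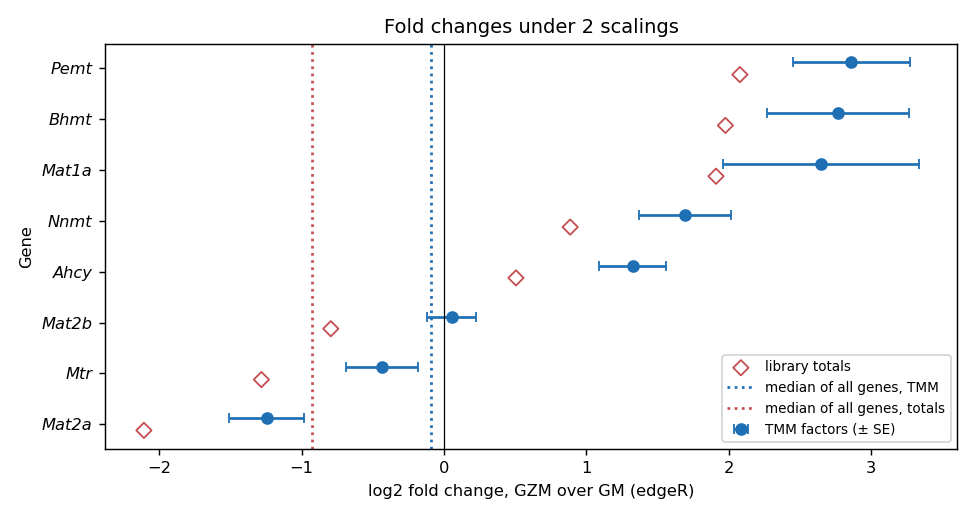
Log2 fold change of GZM over GM for the 8 tested members in edgeR with TMM factors (filled, ± SE) and with library totals (open), with dotted lines at the median of all tested genes on each scale (-0.09 and -0.92). Every member moves to the left with library totals, and Mat2b crosses 0.

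Levels were ordered per exon length, as TMM-scaled FPKM. In GM the means ran from Mat1a (111 ± 112 SD, n = 3), Bhmt (98.2 ± 58.9), Ahcy (98.0 ± 21.4) and Mat2a (87.7 ± 29.6), which are not apart beyond their spread, to Mat2b (28.9 ± 4.91), Pemt (22.6 ± 13.6), Nnmt (15.7 ± 6.02) and Mtr (3.70 ± 0.71). In GZM, Mat1a (696 ± 118) and Bhmt (667 ± 205) did not differ beyond their spread, and Ahcy (245 ± 39.5) and Pemt (164 ± 31.7) followed. Nnmt (50.8 ± 15.9), Mat2a (37.0 ± 3.66) and Mat2b (30.0 ± 3.02) were lower, and Mtr (2.73 ± 0.70) was the lowest tested member in both groups.

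GM 3 was the GM library nearest to the GZM mean for all 6 members called, and for 71.3% of all genes called. The members were therefore set against the hepatocyte markers of the same library, as log2 CPM less the mean log2 CPM of the 18 tested markers. Mat1a stood at -0.83, -1.16 and -0.15 in GM 1, 2 and 3 and at -0.69, -0.19 and -0.14 in GZM 1, 2 and 3, so that the groups overlapped (difference 0.37, exact permutation p = 0.3; adjusted over 16 such comparisons, 0.32). Bhmt (difference 0.17, exact permutation p = 0.8) and Pemt (0.24, exact permutation p = 0.3) overlapped as well. For Mat1a the difference was above the SD of GZM (0.30) and below that of GM (0.51). For Pemt it was above the SD of GM (0.12) and below that of GZM (0.31). The subtracted marker mean rose as well. Relative to its mean over the 6 libraries it was at -1.62, -2.17 and -0.34 in GM 1, 2 and 3. In GZM 1, 2 and 3 it was at 1.49, 1.48 and 1.15. The median edgeR log2 fold change of the markers, another measure, was 2.55, near those of Mat1a, Bhmt and Pemt. Small differences thus follow from how these values are formed. The part of hepatocytes in the rise of these genes was not tested.

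The other members lay lower against the hepatocyte markers in GZM than in GM, with no overlap. Because the marker list itself rose, any gene that rose less comes out lower here. Mat2b, for example, had a log2 fold change of only 0.06 by itself. The share of all tested genes that lay lower in this way was not computed. Ahcy stood at -1.13, -0.43 and -1.83 in GM and -2.42, -2.68 and -2.54 in GZM, a difference of -1.42. For Nnmt the difference was -1.05, for Mat2b -2.69, for Mtr -3.20 and for Mat2a -3.95, each with exact permutation p = 0.1, the smallest possible, and 0.123 adjusted over the 16 comparisons. Against the 19 tested cell division genes, Mat2a stood at 1.98, 2.10 and 2.51 in GM and 2.84, 2.90 and 3.01 in GZM, with no overlap (difference 0.72, exact permutation p = 0.1, adjusted 0.123). That list itself fell (median log2 fold change -1.98). Every tested member lay higher against it in GZM with no overlap, and the difference was smallest for Mat2a.

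**Figure D4:**
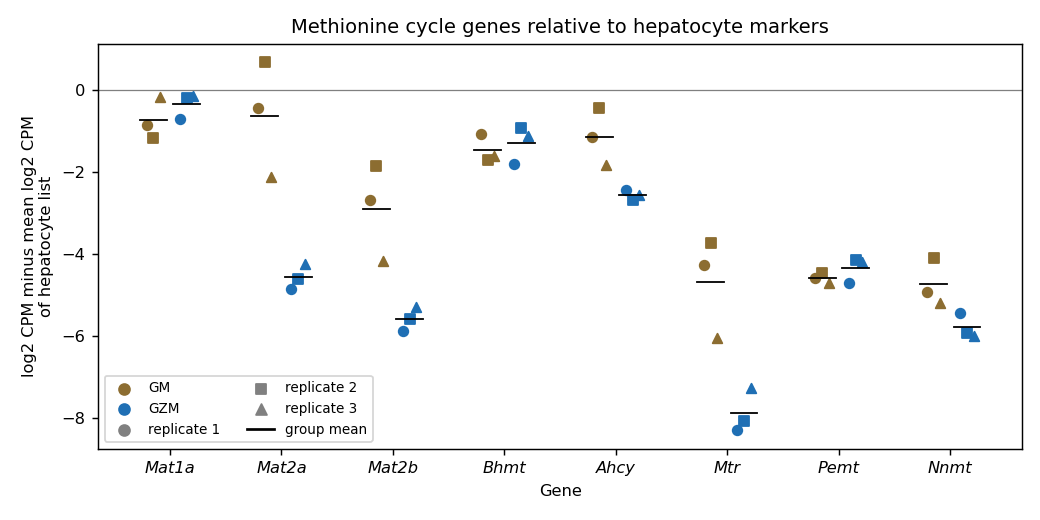
Log2 CPM of each tested member less the mean log2 CPM of 18 hepatocyte markers in the same library, with bars at the group mean (n = 3). GM and GZM points overlap for Mat1a, Bhmt and Pemt, and GZM lies below GM for the other 5.

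The genes whose pattern over the 6 libraries was most like that of a member were named by Pearson's r of log2 CPM among 13017 other tested genes with a symbol. For Mat1a they were Kng1 (r = 0.9993), Fga (0.9991), Orm1 (0.9991) and Fgg (0.9990), which encode plasma proteins secreted by hepatocytes. For Mat2a they were Fam133b (0.9988), Rad18 (0.9985), Capza2 (0.9984) and the thymidine kinase gene Tk1 (0.9984). For Nnmt they were Catsper2 (0.9990), Nudt8 (0.9978), Aknad1 (0.9971) and Tmem9b (0.9966). The 6 points fall into the same 2 groups for every gene and share their libraries and scaling, and r was over 0.95 with Mat1a for 9.51%, with Mat2a for 10.0% and with Nnmt for 7.66% of these genes, so high values are common and describe only the shape over these libraries.

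Around the members, genes that supply or take up their products were counted by list. As a yardstick, 22.2% of all tested genes were higher and 21.7% lower. With library totals 1315 of 14298 were higher and 8513 lower. Leaving out 1 library gave 2112 to 3592 higher and 1665 to 3432 lower, of 14454 to 14843 tested. In the list of remethylation and folate genes 6 of 11 rose and none fell (median log2 fold change 0.76). The serine hydroxymethyltransferase gene Shmt1 rose by 1.27, the folate interconversion gene Mthfd1 by 1.10 and the cobalamin carrier gene Mmadhc by 0.90. None of these 3 passed with library totals, where 1 gene of the list rose and 1 fell (median -0.10). The one that rose was Bhmt2, singled out after its values were known, by 2.35 with TMM factors and by 1.57 with library totals.

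All 7 tested genes of transsulfuration and cysteine use rose (median 2.12; 5 of them without GM 1 or GM 2, and 4 with library totals). Suox, the sulfite oxidase, rose by 2.13, the glutathione synthetase gene Gss by 1.59, and Gclm and Gclc, the subunits of the enzyme that starts glutathione synthesis, by 1.42 and 0.73. With library totals Gss was at 0.74 (edgeR adjusted p = 0.0712) and Gclc at -0.12 (0.62), and neither was called. Cystathionine gamma-lyase, which releases cysteine, was not matched by symbol. The row described by that name (LOC103691744, ENSRNOG00000010658), named after its values were seen, stood at 46.8, 35.3 and 83.0 CPM in GM and 389, 784 and 497 CPM in GZM, with no overlap. Its log2 fold change was 3.34 ± 0.41 SE (edgeR adjusted p = 0.00227). A second row of the same description held at most 3 counts in any library.

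The betaine that Bhmt uses comes from choline, and 8 of 10 genes of choline and betaine handling rose (median 1.60) and none fell, while with library totals 6 rose and 2 fell. Dmgdh, which oxidizes the dimethylglycine left by Bhmt, rose by 2.74. Aldh7a1, which makes betaine, rose by 1.41. Pcyt2 of the phosphatidylethanolamine pathway, whose product Pemt methylates, rose by 2.23 and the choline kinase gene Chkb by 1.04, a call lost with library totals (0.21, edgeR adjusted p = 0.256).

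Methyltransferase genes were counted by list, which separates substrates only roughly. In the list of small molecule methyltransferases 7 of 12 tested genes rose and 1 fell (median 0.84). With library totals 3 rose and 2 fell (median 0.00), and 4 rose without GZM 2. This list also holds Icmt, Pcmt1 and Lcmt1, which methylate proteins. Their log2 fold changes were 0.50, 0.28 and 0.18, and none of them was called with TMM factors. Mettl7b, a thiol methyltransferase of liver, stood at 11.2, 8.26 and 9.72 CPM in GM and 104, 162 and 127 CPM in GZM, the largest rise of the list at 3.75 ± 0.23 SE (edgeR adjusted p = 0.00164). Gamt, which makes creatine, rose by 2.12 and the ubiquinone gene Coq3 by 0.98, a call lost with library totals (0.14, edgeR adjusted p = 0.54). Inmt, an indolethylamine methyltransferase, fell by 3.92 ± 0.74 SE from a low level of 1.94 CPM in GM. It stood at 0.20, 0.19 and 0 CPM in GZM 1, 2 and 3, near the floor, so the size of this fall is uncertain.

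In the list of DNA, RNA and protein methyltransferases, which leaves out Icmt, Pcmt1 and Lcmt1, none of 26 tested genes rose and 14 fell (median -0.52). The histone methyltransferase genes Ezh2, Nsd2, Suv39h2 and Kmt2a fell by 1.68, 1.78, 2.09 and 1.32. The number that fell was 9 without GM 2, 7 without GZM 1 and 6 without GZM 2 or without GZM 3, and 25 with library totals. Over all tested genes 1665 of 14843 fell without GZM 2 and 8513 of 14298 with library totals.

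In polyamine synthesis and methionine salvage 2 of 14 rose and 1 fell (median -0.14). Adi1, a salvage enzyme that leads back to methionine, rose by 1.92 and the spermine synthase gene Sms fell by 1.67, while Oaz2 rose by 0.52 (-0.32 with library totals), a call lost without any single library other than GM 3 (edgeR adjusted p from 0.0526 to 0.101). Mri1 of the salvage path had a log2 fold change of 0.72 ± 0.27 SE (adjusted p = 0.0619). Without GM 3 there were 4 genes higher and 3 lower, and with library totals 1 and 10. Of 5 genes for relatives of Ahcy, adenosine removal and S-adenosylmethionine transport, the adenosine kinase gene Adk rose by 1.80 (90.2 ± 26.4 CPM in GM and 314 ± 38.1 in GZM, SD, n = 3 each), and the adenosine deaminase gene Ada fell by 0.85 and the Ahcy relative Ahcyl2 by 0.59. Ada lost its call without GZM 2 (adjusted p = 0.063) or GZM 3 (0.0569), and Ahcyl2 without any single library other than GM 3 (0.053 to 0.11). The mitochondrial transporter gene Slc25a26 had a log2 fold change of 0.57 ± 0.25 SE (adjusted p = 0.0951).

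Genes of nicotinamide use beside Nnmt rose in 5 and fell in 2 of 10 cases (median 1.20; 8 rose without GM 3, none fell without GZM 3). Qprt and Naprt, which make NAD from quinolinate and nicotinic acid, rose by 2.33 and 1.99, Nadk by 1.26 and Nmnat1 by 1.16. With library totals 3 genes rose and 2 fell, and Nadk (0.43, edgeR adjusted p = 0.0954) and Nmnat1 (0.33, adjusted p = 0.151) were not called. The 2 that fell were Nampt, which recycles nicotinamide, by 0.81, and the NAD consumer gene Parp1, by 0.57, both named after their values were seen. Of 10 methionine and choline transporter genes 3 rose and 2 fell (median -0.14; 1 rose without GM 1, and 1 rose and 6 fell with library totals). The large neutral amino acid transporter gene Slc7a5, typical of dividing cells, fell by 2.18, from 54.5 ± 27.5 CPM in GM to 12.1 ± 3.47 in GZM (SD, n = 3 each), and Slc7a8 by 0.96. The amino acid transporter gene Slc43a1 rose by 1.60. Slc7a8 lost its call without GM 1 (adjusted p = 0.0584) or GZM 2 (0.0719), and Slc43a1 without GM 1 (0.0719) or GZM 1 (0.0635) and with library totals (0.81, adjusted p = 0.0889).

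**Figure D5:**
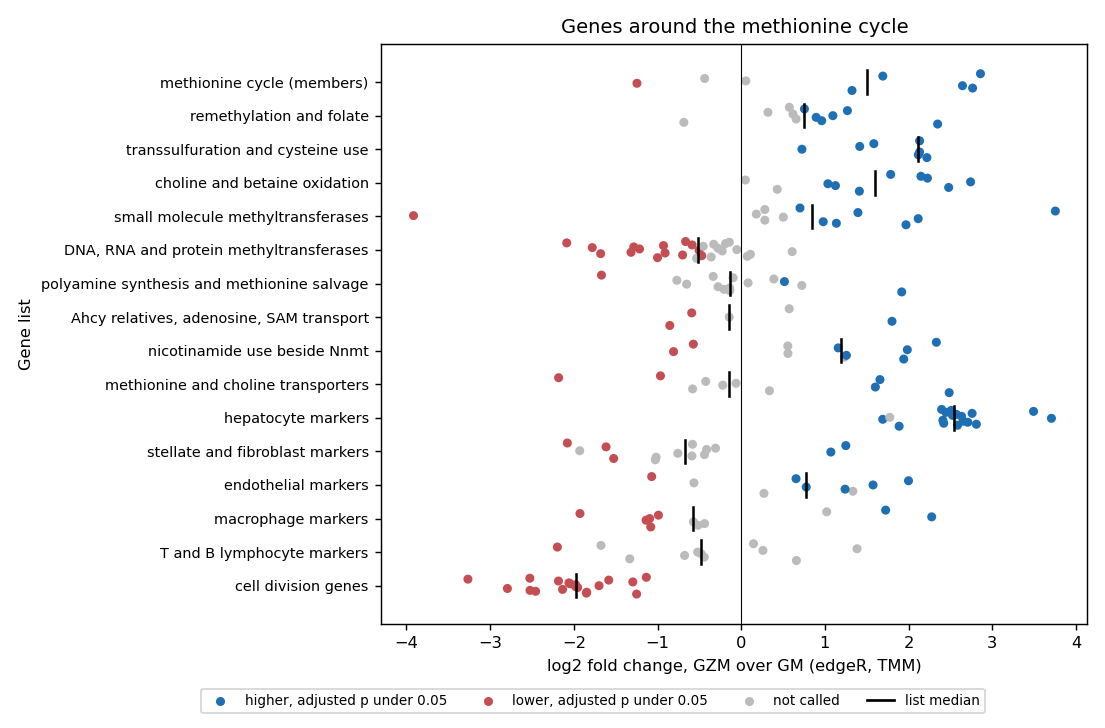
Log2 fold change of GZM over GM (edgeR, TMM factors) for every tested gene of the members and the 15 other lists, coloured by call, with a bar at each list's median. All 7 genes of transsulfuration and cysteine use (Gclc is below 0 with library totals) lie on the higher side with hepatocyte markers. So do all 10 choline and betaine genes (8 of them called, and the other 2 below 0 with library totals). DNA, RNA and protein methyltransferases that were called lie on the lower side with cell division genes.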

How the data were processed

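Bulk RNA sequencing was run on 6 samples of rat liver tissue, 3 GM and 3 GZM, grouped and numbered by their titles. Per the labels' protocols, polyadenylated RNA was made into strand-specific libraries and read as paired ends. The aligner, read counter and use of strand in counting were not given in the sources used here. The submitters' processing notes name mRatBN 7.2. Chromosome 1 of the table runs to 282724300, past the end of that build, so coordinates are those of the table. Counts were deposited as raw whole numbers per gene. FPKM was deposited beside them and equals counts over exon length and summed counts (all 195738 values recomputed within 0.01). GZM columns are spelled ZGM in the table.

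The counts were tested with edgeR 4.0.16 (R 4.3.3; quasi-likelihood, TMM factors, default low-count filter) over 14298 genes, with adjusted p under 0.05. The SE is that implied by the quasi-F value. TMM factors ran from 1.17 to 1.43 in GM and from 0.715 to 0.793 in GZM. CPM values are TMM-scaled. Log2 CPM used a prior count of 2. Ratios used deposited FPKM and exact permutation tests (scipy 1.17.1) over 20 splits. The tests were checked on simulated counts. The members and the 15 other lists (212 symbols in all, 10 of them not matched) were chosen with earlier results of these data known. Comparisons with marker lists within a library were added after seeing the data. Named genes are the members, up to 4 genes of smallest p per list and the 4 most similar genes to Mat1a, Mat2a and Nnmt. Some genes that this rule names are not reported here. Alternatives were library totals, median-of-ratios factors, no filter, DESeq2 1.42.0, limma 3.58.1 on log2(FPKM + 0.5) and log2(FPKM + 0.1), the replicate block and libraries left out. Replicate numbers were not taken to pair the samples, as the labels do not say that they do. Figures were drawn with matplotlib 3.10.9.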

Additional observations from a re-analysis of the deposited data

How the results depend on the processing

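Across 14 alternatives, Mat2a, Bhmt, Pemt and Nnmt kept their direction and call. Mat1a kept its direction in all 14 (log2 fold change 1.91 to 4.06) and its call in 12, and Ahcy its call in 13. Mtr was called lower with library totals and in both limma fits (-1.10 and -1.24), which also lack a factor for composition. Mat2b turned negative in 4: library totals (-0.80), limma on log2(FPKM + 0.5) (-0.75) and on log2(FPKM + 0.1) (-0.76), and without GM 3 (-0.015; range on leaving out 1 library -0.015 to 0.19). Over all genes 6285 changed, against 9828 with library totals, 9900 and 9922 with limma at pseudocounts 0.5 and 0.1, and 3777 to 7024 on leaving out 1 library (3777 without GZM 2). Genes higher made up 3181 of 6285, and 1315 of 9828 with library totals, where the median log2 fold change was -0.92; with limma they were 1364 of 9900 and 1362 of 9922. The cause of the remaining differences was not tested. Differences in log2 ratio ran from 3.45 to 5.35 (Mat1a to Mat2a) and from 2.32 to 3.98 (Mat1a to Mat2b) on leaving out 1 library, with no change of direction. Deviations from the group mean correlated at -0.14, 0.16 and -0.27 between same-numbered samples and at -0.22 to 0.30 between differently numbered ones. Taken from means of only 3 libraries, these values cannot decide if the samples are paired. The numbers were not taken to pair samples because the labels do not say that they do. With the replicate block 5166 genes changed, the same 5 and 1 members were called, and DNA, RNA and protein methyltransferases that fell numbered 9.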
